A study of Saccharomyces cerevisiae with 2 samples.

Results

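The 10 genes described here are those of the Vid22-Env11-Tbf1 complex (TBF1, VID22 and ENV11) and of other abundant factors that bind promoters or telomeres in budding yeast: RAP1, REB1, ABF1, CBF1, MCM1, RIF1 and RIF2. They were taken by symbol from the RefSeq annotation of sacCer3, where all 10 were found among 6002 nuclear protein-coding genes. For each gene the window was the gene with the 1000 bp upstream of its first base, and every Vid22 peak of the deposited list over that window was read. The peaks come from chromatin immunoprecipitation and sequencing (ChIP-seq) of a Vid22-13Myc strain, in which Vid22 carries 13 copies of the Myc epitope, with an anti-MYC antibody. The authors called them against the library of a wild type (no tag) strain, and both strains were pre-grown overnight in YEP, regrown in fresh medium and cross-linked with formaldehyde. DNA of 2 ChIP experiments was pooled for each library, so there is 1 library per condition and no replicate check for any value. The labels list no antibody for the control, whereas the methods describe an untagged strain taken through the same ChIP. The tag sits on VID22 itself, so this member is the modified gene of the tagged strain. Read depth per library is not given in the list, and the reads behind each peak are therefore unknown.

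Tbf1 is an essential Myb domain protein that binds TTAGGG-type repeats next to telomeres and also promoters, including many of small nucleolar RNA genes. Vid22 and its paralog Env11 associate with it. Rap1, Reb1, Abf1, Cbf1 and Mcm1 are sequence-specific factors, several of them called general regulatory factors because they keep the promoters of many genes free of nucleosomes. Rif1 and Rif2 are recruited by Rap1 to telomeric repeats and limit their length. A G-quadruplex (G4) is a fold of DNA in which runs of G stack in planes, and Vid22 was studied here for its place at such sequences. In the following, a predicted G4 element is at least 4 tracts of GGG on 1 strand with loops of 1 to 25 bases, and TAGGG is the Tbf1 consensus.

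A Vid22 peak was found at 1 of the 10 genes, TBF1, the gene of its own DNA-binding partner. No deposited peak, at any q-value, lay over VID22, ENV11, RAP1, REB1, ABF1, CBF1, MCM1, RIF1 or RIF2 or in their 1000 bp upstream. The count was 1 of 10 (10%, 95% Wilson interval 1.79% to 40.4%) with peaks of -log10 q of at least 9, the threshold used here, whereas 829 of all 6002 protein-coding genes (13.8%) had such a peak by the same rule. A -log10 q of at least 10 keeps 413 peaks, the number in the paper, against 445 at 9. The count was 1 of 10 there too, against 13% of all genes. With the whole list of 811 peaks it was again 1 of 10, against 20.6% of all genes. A peak with a fold enrichment above 3, where fold is the read pileup at the summit over the local control level, was found at 1 of 10 and at 5.33% of all genes. The members as a set thus did not stand apart from the annotation in how often they were called, and intervals here cover counting only. Neighbouring genes share upstream sequence and peaks, so genes are not independent of each other.

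**Figure D1:**
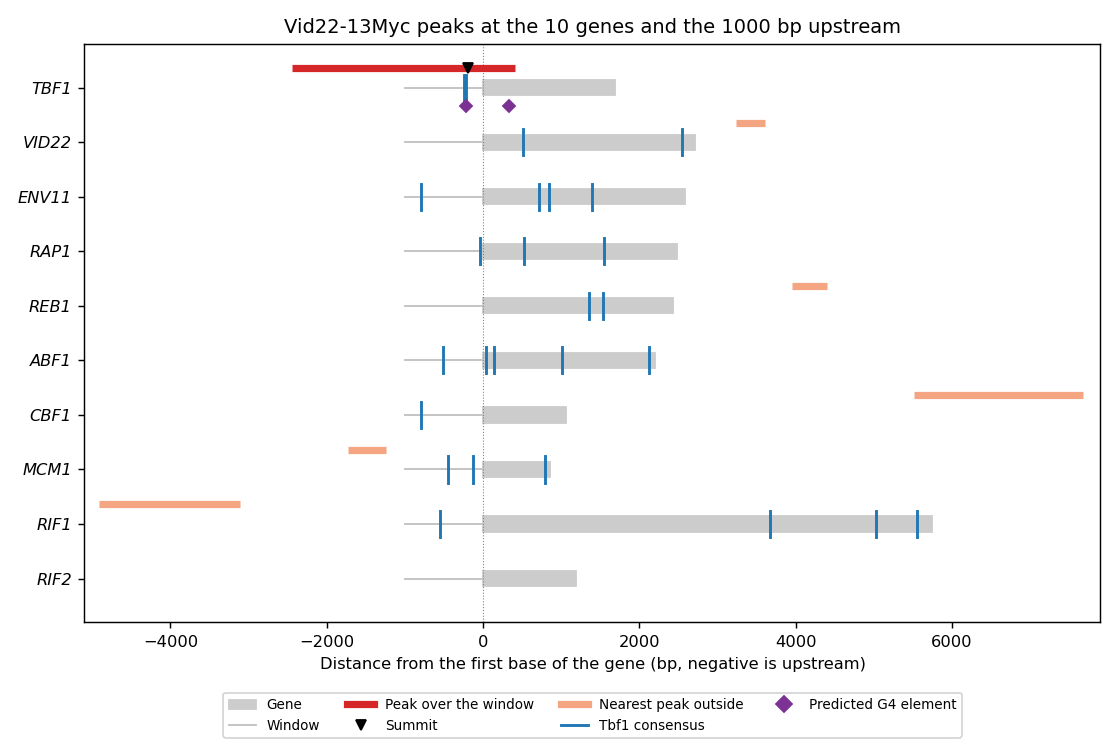
Each row is 1 of the 10 genes, with distance from its first base in bp on the horizontal axis (grey bar, gene; grey line, window), the peak over the window in red with its summit as a triangle, the nearest deposited peak outside in orange where it lies in the drawn range, Tbf1 consensus sites as blue ticks and predicted G4 elements as diamonds. Only the TBF1 row has a peak over its window and predicted G4 elements, while Tbf1 consensus sites occur in 9 of 10 windows. Over all 6002 protein-coding genes, 13.8% of windows have a peak, 12.5% a predicted element and 81.5% a consensus site, so 1 of 10 for elements is near the share of all genes.

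The TBF1 peak was among the strongest of the list. TBF1 (YPL128C) lies on chromosome XVI from 306533 to 308221 on the reverse strand, and the peak spans 307811 to 310663, or 2853 bp. Its summit at 308414 was 193 bp upstream of the first base of the gene, in the 606 bp that separate TBF1 from HHO1. The fold enrichment was 6.31, with a -log10 p of 263.9 and a -log10 q of 260.6, which is the 24th highest fold of 811 peaks. Several peaks share exactly the highest fold of the list, 6.98, and its highest -log10 q, 284. Ranks among the strongest peaks are therefore coarse. The median fold of the 445 peaks with -log10 q of at least 9 was 1.87, so the TBF1 summit stood 3.37 times above it. Of all 6002 genes, 78 (1.30%) had a peak over their window with a fold at least as high. No 50-mer of the peak region recurs elsewhere in the genome.

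The summit sequence shows both features in 1 stretch. The 100 bases from 308394 to 308493 of chromosome XVI are given below on the forward strand, which is the strand opposite to the TBF1 coding strand, with TAGGG in capitals, and the 54-base predicted G4 element (308412 to 308465) and a 19-base element within the gene are given with their GGG tracts in capitals.
TBF1 summit: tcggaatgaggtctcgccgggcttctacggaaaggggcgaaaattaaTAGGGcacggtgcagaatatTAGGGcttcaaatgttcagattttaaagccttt
TBF1 upstream element: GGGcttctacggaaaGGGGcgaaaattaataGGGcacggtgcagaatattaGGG
TBF1 gene element: GGGGGGGaGGGGagttGGG

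The summit fell inside the upstream element, 2 bases from its start, and the element contains both TAGGG sites of the TBF1 window. These lie at 308441 to 308445 and 308461 to 308465, in the same direction, 15 bp apart and 27 and 47 bp from the summit. The GGG of each site is 1 of the 4 tracts of the element, while the other 2 tracts lie outside the sites, and the summit falls in the first of these. The part of the sites and of the element in the peak was not tested. The second element, at 307882 to 307900, lies within the coding sequence, 321 bp from the first base of TBF1, and is 1 of 38 elements of the nuclear genome (635 in all) whose loops are at most 7 bases. It is covered by the peak, but the list gives 1 summit per peak and no signal at this position.

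A summit inside a predicted element was seen in 29 of 445 peaks (6.52%, Wilson interval 4.58% to 9.20%), and in 24 of these the element holds TAGGG. The share of 6.52% was not compared with the part of the genome that such elements cover. Among the 90 peaks with a fold above 3 there were 9 such summits, all in elements that hold TAGGG, and TBF1 had the second highest fold of the 9. The highest, 6.62, was upstream of TIP20, and the lowest was 3.44. At least 2 TAGGG sites within 100 bp of the summit, as at TBF1, were found in 92 of 445 peaks (20.7%) and in 61 of the 90 with a fold above 3 (67.8%).

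**Figure D2:**
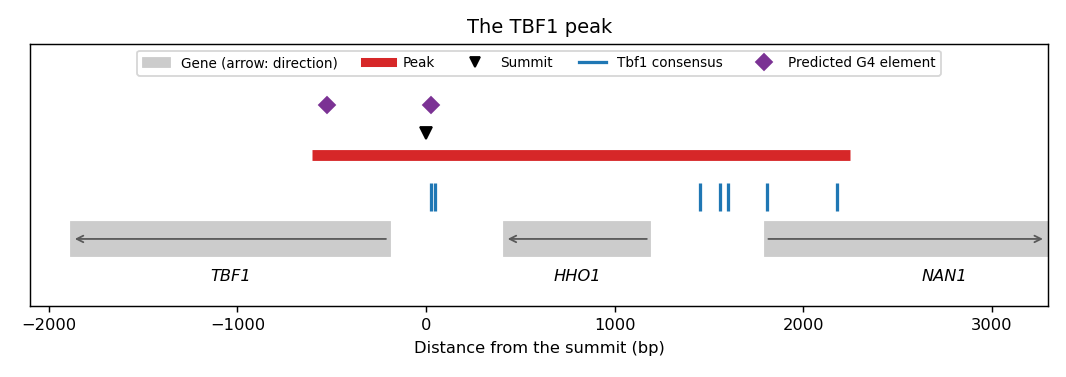
The horizontal axis is the distance from the summit of the TBF1 peak in bp, with genes as grey bars whose arrows give the direction of transcription, the peak in red, its summit as a triangle, Tbf1 consensus sites as blue ticks and predicted G4 elements as diamonds. The pair of sites 27 and 47 bp from the summit and the upstream element share the summit, and the peak reaches on over HHO1 into NAN1.

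The peak was not symmetric. It extended 603 bp from the summit towards TBF1 and 2249 bp in the other direction, over all 777 bp of HHO1 (YPL127C), which encodes the linker histone H1, and over 454 bp of NAN1 (YPL126W), a U3 small nucleolar ribonucleoprotein component. HHO1 and NAN1 are transcribed away from each other, and the 605 bp between them hold another 3 TAGGG sites, 1451 to 1602 bp from the summit. In all, the peak held 7 TAGGG sites, 5 of them between genes, or 2.45 per kb, compared with 0.803 per kb over the nuclear genome. The list does not say whether this second group of sites has a local maximum of its own. HHO1 and NAN1 are counted among the 829 genes through this same peak.

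The other members of the complex had no peak. In VID22 (YLR373C, chromosome XII, 868662 to 871367, reverse strand) the 1000 bp upstream held no TAGGG and no predicted element, and its 2 TAGGG sites lie in the gene. The nearest deposited peak was 529 bp beyond the 3′ end of VID22, at ELO3, with a fold of 1.37 and a -log10 q of 2.26, which is below the threshold. ENV11 (YGR071C, chromosome VII, 631481 to 634063, reverse strand) had 4 TAGGG sites, 3 in the gene and 1 at 796 bp upstream. Its nearest peak was 21393 bp away, at the small nucleolar RNA gene SNR48, with a fold of 1.49 and a -log10 q of 8.82. A predicted G4 element lay 412 bp outside the ENV11 window, the closest among the 9 genes without a peak, for which this distance reached 21551 bp at RAP1.

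The telomere factors had none either. RAP1 (YNL216W, chromosome XIV, 241689 to 244172, forward strand), which encodes the protein that coats telomeric repeats and activates ribosomal protein genes, has a TAGGG 35 bp upstream of its first base, closer than those of TBF1, and 2 more in the gene. Its nearest peak was 58500 bp away at the ribosomal protein gene RPS3, with a fold of 1.63. This was the longest such distance of the 10 genes over all deposited peaks, whereas with -log10 q of at least 9 that of ENV11 was longer, at 75944 bp. RIF1 (YBR275C, chromosome II, 751356 to 757106, reverse strand) has 1 TAGGG at 546 bp upstream and 3 in the gene. A strong peak lay 2113 bp beyond the upstream edge of its window, with a fold of 6.06 and a -log10 q of 244.5, over DPB3 and PAF1, where PAF1 encodes a subunit of a complex that travels with RNA polymerase II. RIF2 (YLR453C, chromosome XII, 1041799 to 1042986, reverse strand) was the only member with no TAGGG in its window. Its nearest peak, at a tRNA gene 7947 bp beyond the upstream edge of the window, had a fold of 2.05.

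The general regulatory factor genes gave the same result. REB1 (YBR049C, chromosome II, 334386 to 336818, reverse strand), whose product also ends transcription by RNA polymerase II, has 2 TAGGG sites in the gene and none upstream. ABF1 (YKL112W, chromosome XI, 226570 to 228765, forward strand), named for its binding to replication origins, had the most TAGGG sites of the 10 windows, with 4 in the gene and 1 at 510 bp upstream. The nearest peak was 5466 bp beyond the upstream edge of the ABF1 window, at a tRNA gene (fold 1.96). CBF1 (YJR060W, chromosome X, 548759 to 549814, forward strand), which encodes a centromere and methionine gene factor, has 1 TAGGG at 788 bp upstream. A strong peak with a fold of 5.78 lay 4461 bp beyond the 3′ end of CBF1, over NTA1, RPA12 and CCT5. MCM1 (YMR043W, chromosome XIII, 353871 to 354731, forward strand), a MADS box factor of cell cycle and mating genes, has TAGGG at 125 and 452 bp upstream, the same number as TBF1.

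The nearest miss was at MCM1. A peak with a fold of 1.61 and a -log10 q of 12.8 ended 241 bp outside its window, so MCM1 would be counted with 2000 bp of upstream sequence. That peak has its summit 258 bp upstream of ARG80, the paralog and upstream neighbour of MCM1, and covers a tRNA gene (YNCM0019W). At REB1 the nearest deposited peak, 1519 bp beyond the 3′ end, lies at the ribosomal protein gene RPS11B and had a fold of 1.58 and a -log10 q of 7.46. The 50-mers of all 10 windows are likewise unique in the genome. The weakest of the 445 peaks had a fold of 1.42, and the weakest of the list 1.16. Enrichment below what the peak caller reports would not be detectable here.

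**Figure D3:**
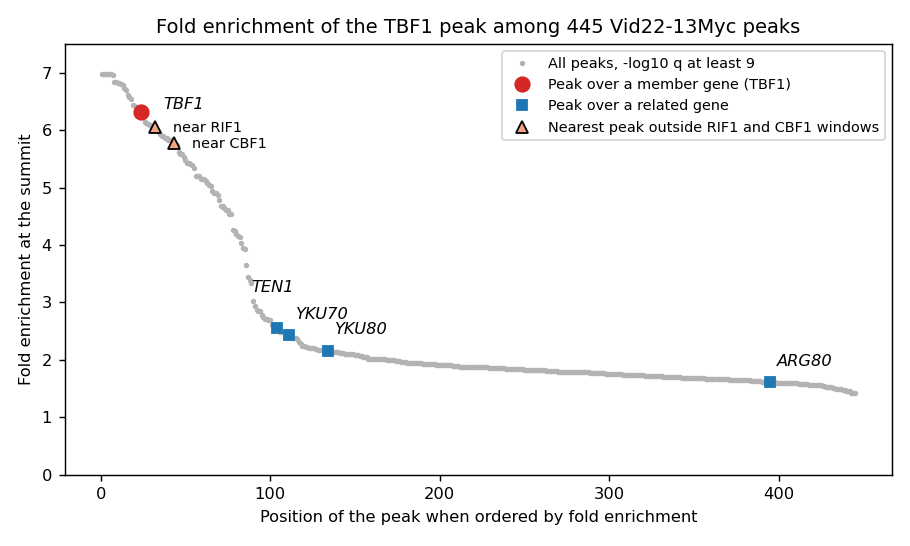
The 445 peaks with -log10 q of at least 9 are ordered by fold enrichment on the horizontal axis, with fold on the vertical axis, and the TBF1 peak is in red, peaks over related genes are blue squares and the strong peaks outside the RIF1 and CBF1 windows are orange triangles. TBF1 stands at 6.31 in the steep part of the curve, while TEN1, YKU70, YKU80 and ARG80 lie between 2.55 and 1.61.

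The upstream TAGGG sites of the genes without a peak are shown beside those of TBF1, each with 10 bases on both sides and on the strand that reads TAGGG, to compare their number, distance and neighbouring bases.
TBF1 at 220 bp: cgaaaattaaTAGGGcacggtgcag
TBF1 at 240 bp: tgcagaatatTAGGGcttcaaatgt
ENV11 at 796 bp: tttctttacgTAGGGcgacagtttc
RAP1 at 35 bp: gtgtcttatgTAGGGcggttgcgta
ABF1 at 510 bp: ttaaacgcgtTAGGGggatctgcaa
CBF1 at 788 bp: gttggtgtagTAGGGgtggagttta
MCM1 at 125 bp: gattcagttaTAGGGaaaaaaacgg
MCM1 at 452 bp: accaaaaagcTAGGGcgtactgtac
RIF1 at 546 bp: acatcatctgTAGGGgtatcgctga

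Of the members with 2 upstream TAGGG sites, TBF1 and MCM1, only TBF1 had them close together. TAGGG was present in 9 of 10 windows, against 4892 of 6002 windows of all genes (81.5%), and in the 1000 bp upstream of 7 of 10, against 3341 of 6002 (55.7%). A pair on 1 strand with starts at most 50 bp apart, a limit chosen after the TBF1 sites had been seen, was present upstream of TBF1 alone among the members, and upstream of 193 of 6002 genes (3.22%). The 2 sites of MCM1 are on the same strand too but 322 bp apart. Of the 193 genes, 72 (37.3%, Wilson interval 30.8% to 44.3%) had an upstream peak with a fold above 3, against 165 of 3148 genes (5.24%, 4.52% to 6.08%) with TAGGG but no such pair. These 3148 genes include the 2045 with 1 upstream site, whereas a pair needs at least 2. Spacing was thus not separated from the number of sites. Of the 43 genes with both a pair and a predicted element upstream, as TBF1 has, 22 (51.2%, Wilson interval 36.8% to 65.4%) had one. Of all 420 genes with a predicted element upstream, 52 (12.4%) had one. The 43 genes are part of the 193 with a pair, so their intervals cannot be compared as independent ones, and what the element adds to a pair was not tested.

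By number of sites, the share of genes with an upstream peak of fold above 3 was 2.18% with no TAGGG upstream (58 of 2661), 3.42% with 1 (70 of 2045), 7.60% with 2 (68 of 895) and 24.7% with 3 or more (99 of 401). VID22, REB1 and RIF2 are in the first class, ENV11, RAP1, ABF1, CBF1 and RIF1 in the second, and TBF1 and MCM1 in the third. In every class most genes had no upstream peak of -log10 q of at least 9 either. The share called was 9.43% in the first class, 11.0% in the second, 15.6% in the third (140 of 895) and 31.4% with 3 or more sites (126 of 401). The 8 members with at most 1 upstream site and no peak were in classes where few genes had one, and few genes had one in the class of TBF1 and MCM1 as well. Whether the number of sites accounts for the missing peaks was not tested.

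**Figure D4:**
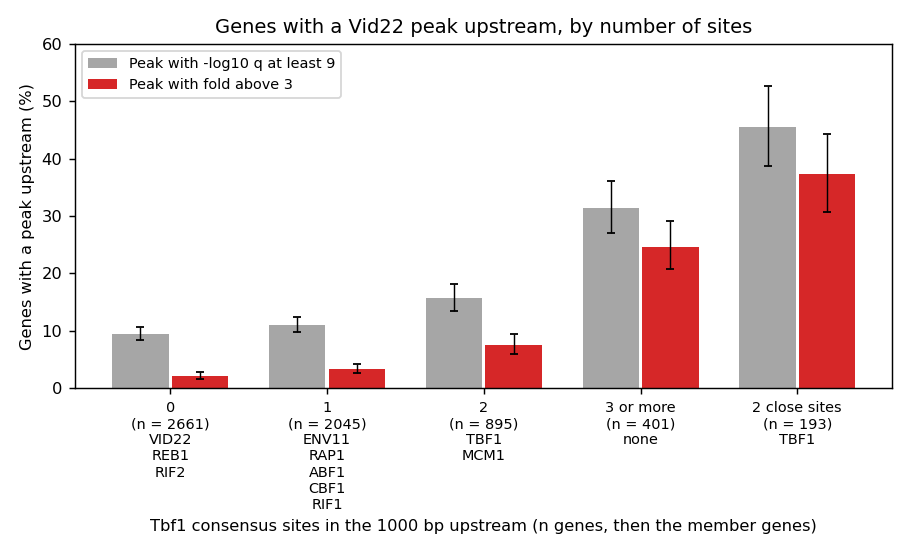
Bars give the percent of protein-coding genes with an upstream peak (grey, -log10 q of at least 9; red, fold above 3) by the number of Tbf1 consensus sites in the 1000 bp upstream, with 95% Wilson intervals as error bars, the number of genes and the member genes under each class; the last class, with 2 sites at most 50 bp apart, overlaps the classes with 2 and with 3 or more. The red bars run from 2.18% with no site to 24.7% with 3 or more, and 37.3% for the close pairs that include TBF1.

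The bases beside TAGGG were compared as well. Both TBF1 sites are followed by C, and so are the upstream sites of ENV11 and RAP1 and the MCM1 site at 452 bp. Around the other 89 summits with a fold above 3, 173 of 184 TAGGG sites within 100 bp (94.0%, Wilson interval 89.6% to 96.6%) were followed by C or T, compared with 4678 of 9691 TAGGG sites of the nuclear genome (48.3%, 47.3% to 49.3%). Of the 7 upstream sites of the members without a peak, 3 were followed by C or T, and of all 24 sites in their windows 10 were. A T before the consensus, which makes TTAGGG, was found at 1 of the 2 TBF1 sites and at 1 of these 7, in ABF1, against 77 of 184 (41.8%) at the strong summits and 30.4% in the genome. None of the 7 upstream sites of the 9 genes had both bases, and 1 of all 24 sites in their windows had. In the genome 1449 of 9691 sites (15.0%) had both, and at the strong summits 73 of 184 (39.7%). With 7 sites, none is not far from the share of the genome. The flanking bases were compared only after the peak at TBF1 had been seen, and these shares describe the sequences without showing which factor was bound.

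Promoters of the members were also searched for the motifs of Reb1, Abf1, Cbf1 and Rap1, on both strands and in the 1000 bp upstream. The motif of Mcm1 was not searched. TTACCCG, the Reb1 motif, was found upstream of 1 member, REB1 itself, and of 812 of 6002 genes (13.5%). The Abf1 consensus was found upstream of VID22, REB1, ABF1 and RIF2, with 2 matches each at REB1, ABF1 and RIF2 and 1 at VID22, and of 24.4% of all genes. CACGTG, bound by Cbf1, was found upstream of RAP1, REB1 and CBF1, and of 10.8% of all genes. The Rap1 motif ACCCANACA was found upstream of no member and of 5.05% of genes. None of these 4 motifs was found upstream of TBF1. The sites of factors in front of their own gene, in gene orientation with the motif in capitals, are shown so that they can be set beside the TAGGG pair at TBF1.
REB1 at 262 bp: aacaactttgTTACCCGtctttcaaat
ABF1 at 314 bp: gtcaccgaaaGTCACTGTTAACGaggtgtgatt
ABF1 at 52 bp: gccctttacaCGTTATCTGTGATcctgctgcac
CBF1 at 163 bp: aacaattatcCACGTGcttatcacgt

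At TBF1 the pair of TAGGG sites shown above lies 220 and 240 bp upstream, and the sites of the other factors lie 52 to 314 bp upstream. Among the 5 factors whose motif was searched, 4 have it upstream of their own gene (TBF1, REB1, ABF1 and CBF1), and of these TBF1 had a Vid22 peak. Over all genes, TAGGG is upstream of 55.7%, the Abf1 consensus of 24.4%, TTACCCG of 13.5% and CACGTG of 10.8%. A motif in front of its own gene was not tested against these shares. In the shorter window from 250 bp before to 50 bp after the first base, TAGGG was present at 4 members, TBF1, RAP1, ABF1 and MCM1, and at 20.9% of all genes. A match of letters is a description and not a binding site.

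Among 33 related genes, the 4 with a Vid22 peak of -log10 q of at least 9 had it at a tRNA gene. Of 16 further telomere genes 3 had a peak of -log10 q of at least 9, and of 17 promoter regulators and paralogs 1 had, so 4 of 33 against 13.8% of all genes. None of the 33 had a fold above 3, against 5.33% of all genes, so few would be awaited among 33. TEN1, a subunit of the telomere capping complex with Cdc13 and Stn1, had a peak with a fold of 2.55 and its summit 227 bp upstream. YKU70 and YKU80, the Ku subunits that bind DNA ends, had folds of 2.44 and 2.16 at 155 and 424 bp upstream. ARG80 had the fold of 1.61 given above. All 4 peaks overlap a tRNA gene, as do 160 of the 445 peaks (36%) and 158 of the 355 among them with a fold of at most 3 (44.5%). A predicted G4 element was within 200 bp of none, and TAGGG was within 100 bp of the summit at YKU70 and YKU80. CDC13, STN1, SIR2, SIR3, SIR4, TEL1, MRE11, XRS2, EST1, EST2, EST3 and PIF1 had no deposited peak, and RAD50 had one below the threshold, with a fold of 1.54 and a -log10 q of 8.16. Of the promoter regulators IFH1 had one below it (fold 1.67, -log10 q 6.87), and FHL1, SFP1, HMO1, GCR1, HSF1 and the Reb1 paralog gene NSI1 had none. With a fold of 6.31, the peak at TBF1 stood above each of these.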

How the data were processed

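Vid22-13Myc ChIP-seq peaks were analysed, with the wild type (no tag) library present only as the control of the peak calling. According to the methods, the authors aligned 50 bp reads with bowtie, kept those with a single best alignment, took out PCR duplicates (samtools rmdup) and ran MACS2 for the peaks. In the deposited list the integer score is -log10 q times 10, rounded down (true of all 811 peaks). The deposited fold is the ratio of pileup to local control at the summit, and the deposited -log10 p and -log10 q are those of the summit. The list reaches below the false discovery rate of the methods, whose notation alone can be read in more than one way. A -log10 q of at least 10 keeps 413 peaks, the number that the paper reports. The looser -log10 q of at least 9, which keeps 445 peaks, was used here, and 10 was also tried. Chromosomes are named by the accessions of the RefSeq R64 assembly (sacCer3), whose sequence and annotation were used, and all sequences shown come from it. A peak counted for a gene if it overlapped the gene or the 1000 bp upstream by 1 base. No test between samples was possible with 1 library per condition. The members and lists were chosen with earlier results of these data known. Every peak over a member window was named, and of the related lists the 5 genes with the highest fold, of which at most 4 had a peak, with others named as having none. Searches and overlaps were tested on simulated data. Tools were matplotlib 3.10.9, scipy 1.17.1, pandas 2.3.3 and numpy 2.4.6 under Python 3.11.15. Gene coordinates cover the coding sequence. Protein sequences were not used here.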

Additional observations from a re-analysis of the deposited data

How the results depend on the processing

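Of 27 alternatives over 6 results, 25 left the count or value within 1.5 times that reported. The results on TAGGG at the summit, on nearby G4 elements and on the highest fold rest on the TBF1 peak alone. With its -log10 q of 260.6, the q filters could not change them, so the tally says little about robustness. With 2000 bp of upstream sequence 2 members had a peak, TBF1 and MCM1. With TTAGGG in place of TAGGG, the consensus was present in 5 member windows (TBF1, VID22, ENV11, ABF1 and RIF1) in place of 9. TBF1 was the only member with a peak under the other 7 alternatives for that count, which covered all deposited peaks, a -log10 q of at least 10 or 20, 500 bp upstream, the upstream part or the gene alone, and the summit inside the window. Its peak kept a TAGGG within 50 bp of the summit and a predicted G4 element with loops of at most 7 bases, the latter through the element in the gene. Among the related genes the count ran from 3 to 6, beside the 4 reported, and 6 lies at the limit of 1.5 times. With 1 pooled library per condition none of these values has an error between cultures.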
